A study of Mus musculus with 8 samples.

Results

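The genes described here encode the machinery that stores, primes and releases synaptic vesicles in neurons of the mouse stellate ganglion. They are 35 genes chosen by name, and all 35 were found among the 19224 genes of the neuron expression table. A sympathetic neuron keeps noradrenaline in small vesicles and neuropeptides such as neuropeptide Y (Npy) in large dense-core vesicles. SNARE proteins on the vesicle and on the plasma membrane zip together to drive fusion, synaptotagmins sense the calcium that triggers it, complexins hold the assembled SNAREs ready, and RIM, Munc13, CAPS and Rab3 proteins tether and prime the vesicle. NSF and its SNAP adaptors then take the used SNARE complexes apart, while synapsins and synucleins bind the vesicle pool.

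Droplet single-cell RNA sequencing was run on both stellate ganglia of C57BL6/J mice aged 8 to 10 weeks that carried a retrograde AAV-GFP injected into the heart and an AAV-tdTomato injected into the front paws, to ask which neurons reach each tissue. The series holds 8 samples of this single condition, so there was no treated and untreated group. The study sorted 1303 neurons into 8 subtypes, namely noradrenergic NA1a, NA1b, NA1c, NA2 and NA3, cholinergic Ach1 and Ach2, and glutamatergic Glut. The protocol combined 16 left and right ganglia for digestion, so whether each library came from 1 animal was not settled, and a library is called a mouse below because the samples are titled so.

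Of the 8 mouse names in the table, 5 matched exactly 1 sample, and their 1002 neurons gave the values by mouse, as mice 1 to 5. All 5 are of batch 2 in the study's list, and no sample of batch 1 was matched. The other 301 neurons entered the values pooled over all 1303, and the cut-offs for pooled Npy and for NA3 glial RNA. They are spread unevenly: 182 of 316 NA1a, 17 of 37 Glut and 62 of 64 Ach1 neurons were of the matched mice. Pooled values of the subtypes therefore mix the sources in different shares. Total UMIs (unique molecular identifiers, each standing for 1 captured transcript) ran from 916296 to 1196621 per mouse and the median per neuron from 2722 to 4854. A set of 21 cell barcodes occurred in more than 1 library and accounted for 73 neurons, of which 55 were among the 150 NA2 neurons, 15 among the 46 Ach2 neurons and 3 among the 17 Glut neurons of these mice. None was in NA1a, NA1b, NA1c, NA3 or Ach1. One barcode reached up to 5 libraries, 20 of the 21 had 1 subtype in every library, and the median was 2046 UMIs in these neurons against 3921 in the others. Whether these are the same cells read in more than 1 library was not tested. If they are, the NA2 and Ach2 profiles of different mice are not independent, so NA2 and Ach2 results are also given without these neurons. Summed sympathetic markers (Dbh, Th and 8 others) stood at 115 to 136 UMIs per 10000 in NA1a, NA1b, NA1c and NA2 on average over mice, at 73.2 in Ach2 and at 58.8 in NA3. The 4 cholinergic markers summed to 49.8 in Ach2 and to 0.85 or less in the noradrenergic subtypes. Pooled over all neurons they summed to 4.78 in Ach1 and 89.9 in Ach2, and the sympathetic markers to 122 and 80.0. The name cholinergic for Ach1 is the study's, and these markers do not bear it out.

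Of the 35 members, 32 were high enough to test across subtypes, the filter being a mean of at least 0.5 UMIs per 10000 in at least 2 profiles of a mouse and subtype. Sv2b, a vesicle glycoprotein, was seen in 1 neuron, Cadps2, a paralog of the priming factor Cadps, in 9 neurons, and Rims1, an active zone scaffold, in 66 neurons of 1303. Snap25 and Syt1 were among the genes by which the study picked its neurons, so their detection in 90.5% and 94.7% of them is no finding. In each neuron a median of 20 members had at least 1 UMI in NA1a, 18 in NA1b, 16 in NA1c, 15 in NA2, 17 in NA3, 14 in Ach1, 17 in Ach2 and 20 in Glut. Neurons differed in depth, with a median of 6773 UMIs in NA3 and 2206.5 in Ach1. After each neuron was thinned to 2000 UMIs, which left 1073 neurons, the medians were 12, 13, 13, 13, 9, 13, 11 and 16 in the same order, so NA3 neurons held the fewest members at equal depth.

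**Figure D1:**
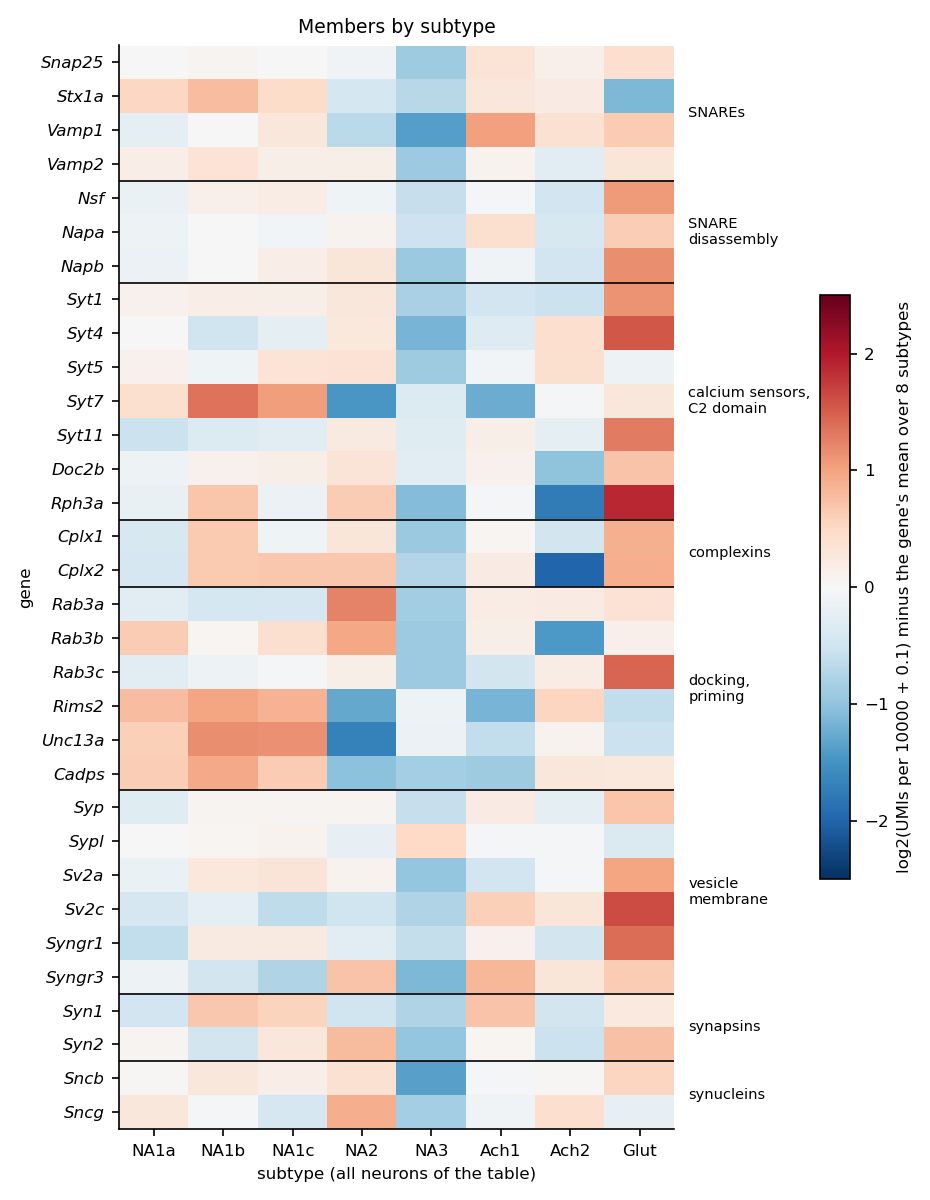
Heat map of the 32 tested members (rows, grouped by role) in the 8 subtypes (columns), as log2(UMIs per 10000 + 0.1) over all neurons minus the mean of the gene over the 8 subtypes. The NA3 column is blue for most genes and red for Sypl, the NA2 and Ach1 columns are both blue for Syt7, Rims2, Unc13a and Cadps, and the Glut column is red for Syt1, Syt4, Syt11, Rab3c, Sv2c and Syngr1.

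The 35 members together took 115 to 139.8 UMIs per 10000 in the 5 mice for NA1a, 117 to 139 for NA1b and 115 to 129 for NA1c. NA2 was higher, at 140.0 to 179, and NA3 was the lowest at 66.9 to 72.1 in its 3 mice. The 2 mice with Ach2 profiles had 107 and 111. A large share of the NA2 sum was 1 gene, Sncg (gamma-synuclein): without it the means were 94.5 ± 11.8 in NA1a, 107 ± 10.1 in NA1b, 106 ± 4.75 in NA1c, 115 ± 13.5 in NA2 (SD, n = 5), 55.6 ± 3.82 in NA3 (SD, n = 3) and 76.6 ± 5.98 in Ach2 (SD, n = 2). Without Sncg the NA2 mice overlapped the NA1 mice, and the NA3 mice stayed below all of them.

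**Figure D2:**
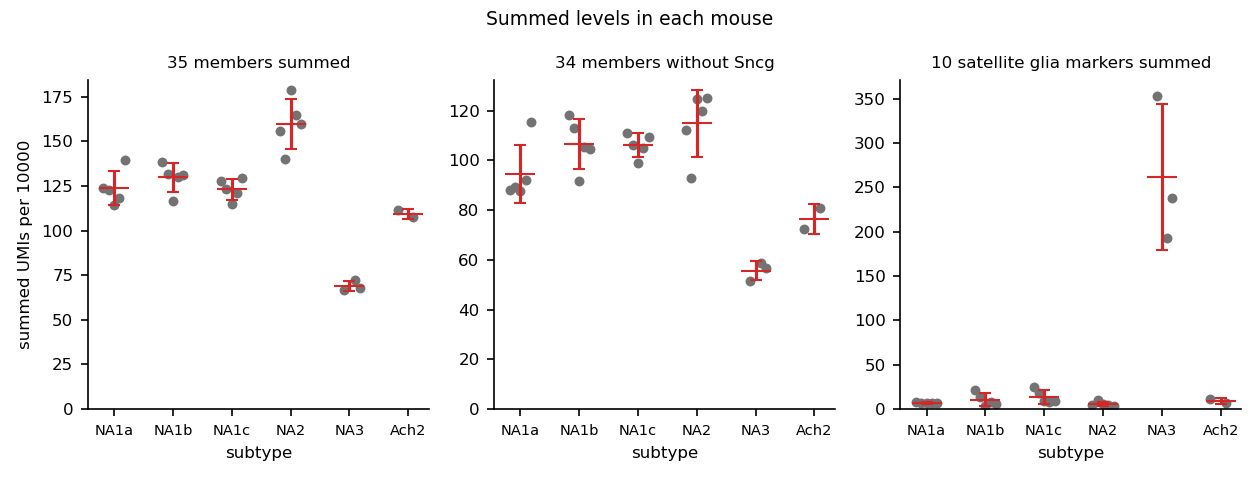
Summed UMIs per 10000 in each mouse (points) and subtype, with the mean and SD in red, for the 35 members, for the members without Sncg and for 10 satellite glia markers. NA3 is the lowest subtype for the members (66.9 to 72.1) and the highest for the glial markers (193 to 354).

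Subtypes were compared on 1 mean profile per mouse and subtype with at least 10 neurons, on log2(UMIs per 10000 + 0.1), with limma and mouse as a block over 7095 genes. Calls are at a Benjamini-Hochberg adjusted p under 0.05. Shares of all genes called are those of the main fit of each comparison unless another setting is named. The subtypes were themselves clustered from these neurons, so the tests say how steady a difference was over mice and are not independent evidence of it. The comparisons with NA2, NA3 and Ach2 share the NA1 neurons as their reference, the mean of NA1a, NA1b and NA1c.

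In NA3 most of the release machinery that could be tested was lower. Of the 32 members, 20 were lower than in the NA1 subtypes by limma and none was higher, at an unadjusted p under 0.05 either, where 15.2% of all genes tested were lower and 10.4% higher (25.6% in either direction). The members' median log2 difference was -0.90 against -0.24 over all genes. With every profile centred on its median gene 19 were lower, and the medians were -0.82 for the members and -0.15 over all genes. All 4 SNARE genes, both complexins, both synapsins and both synucleins were among the 20. NA3 also held the most glial RNA. The 10 satellite glia markers were all higher, and summed to 193 to 354 UMIs per 10000 against 3.31 to 24.5 in any NA1 mouse. Of those tested, 5 of 5 Schwann cell markers and 3 of 3 fibroblast markers were higher. All 10 sympathetic markers were lower, with a median log2 difference of -0.90. A fall of that size was thus not particular to the members. The 49 NA3 neurons below the NA3 median for the satellite glia sum, 44 of them in the matched mice, are called low in glial transcripts below. They still averaged 116 UMIs per 10000 of these markers, above the 3.31 to 24.5 of the NA1 mice. With a minimum of 5 neurons a profile, 10 neurons of mouse 4 and 26 of mouse 5 gave the 2 NA3 profiles. The members' median there was -0.82 against -0.23 over all genes, and 10 members were lower. They were Snap25, Vamp1, Napb, Syt1, Rab3b, Rab3c, Cadps, Sv2a, Syn2 and Sncg, so of the groups above 2 SNARE genes, 1 synapsin, 1 synuclein and neither complexin were called. The part of glial RNA in the fall of the members was not tested in neurons free of it. Mitochondrial transcripts took 7.61% of UMIs in NA3 (n = 3) against 3.37% to 4.51% in the NA1 subtypes. When those transcripts were left out 19 members were lower, with medians of -0.87 for the members and -0.19 over all genes.

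NA2 did not move one way. It had 7 members higher (Rab3a, Syngr3, Sncg, Syn2, Syt11, Syt4 and Rab3b) and 6 lower (Syt7, Unc13a, Rims2, Cadps, Stx1a and Vamp1), where 22.4% of all genes were higher and 37.5% lower (60% in either direction), so that a called gene was the usual case in this comparison. The members' median was 0.04 against -0.28 over all genes. With every profile centred on its median gene, 13 members were higher and 5 lower, with medians of 0.36 for the members and 0.04 over all genes. The share of all genes called in that setting is not given beside this count. Without the neurons that share a barcode, which leaves 4 mice, 10 members were higher and 5 lower. The share of all genes called is not given beside this count either. Neither count alone says that the members differ from other genes. The medians were then 0.26 for the members and -0.24 over all genes. Rab3b (log2 0.41, adjusted p = 0.0959) and Vamp1 (-0.28, adjusted p = 0.541) lost their calls. The other 11 calls were kept without these neurons, with log2 differences of 1.33 for Rab3a, 0.89 for Syngr3, 0.89 for Sncg, 1.03 for Syn2, 0.73 for Syt11, 0.64 for Syt4, -2.10 for Syt7, -2.14 for Unc13a, -2.19 for Rims2, -1.30 for Cadps and -1.37 for Stx1a. Mitochondrial transcripts took 7.27% of UMIs in NA2. Without them the members' calls were still 13, with medians of 0.09 for the members and -0.25 over all genes.

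In Ach2, represented by 2 mice, 5 members were lower and none higher by limma (3 higher at an unadjusted p under 0.05), where 5.65% of all genes were lower and 4.26% higher (9.91% in either direction). They were Cplx2, Rab3b, Syt1, Rph3a and Nsf. The members' median was -0.24 against -0.13 over all genes, and centring on the median gene gave 5 calls too. Without mouse 1 or mouse 4, which leaves 1 Ach2 profile that is assumed to vary like those of the other subtypes, Cplx2 and Rab3b were the 2 members called. Without the neurons that share a barcode 5 members were again lower, with Syn2 in place of Nsf, and the differences were -2.03 for Cplx2, -1.89 for Rab3b, -0.98 for Syt1 and -2.01 for Rph3a. With profiles of at least 5 neurons, which gave 5 mice, 14 members were called, 2 of them higher, but 35.1% of all genes were then called.

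**Figure D3:**
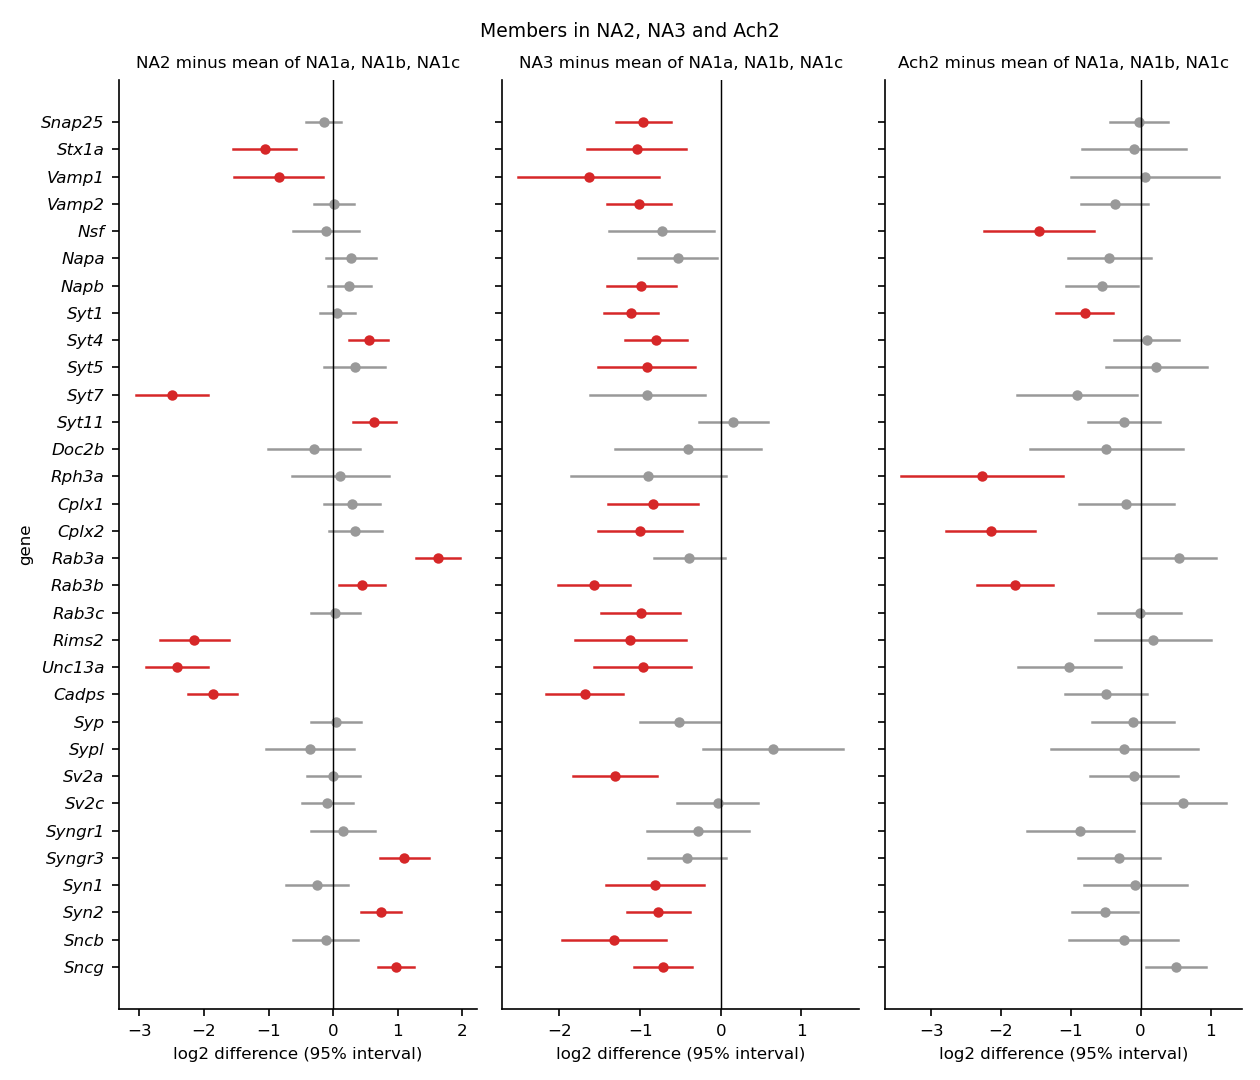
Log2 difference (points) and its 95% interval (bars) of each of the 32 tested members in NA2, NA3 and Ach2 from the mean of NA1a, NA1b and NA1c, with called members in red. In NA3 the 20 called members all lie left of 0, in NA2 there are 7 on the right and 6 on the left, and in Ach2 there are 5 on the left.

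Within the NA1 subtypes few members differed. NA1a, the subtype rich in Npy, was lower than NA1b in 4 members (Syt7, Cplx1, Cplx2 and Syn1) and higher in 1 (Rab3b), where 1.2% of all genes were lower and 2.28% higher (3.48% in either direction). Against NA1c it was lower in 3 (Syt7, Cplx2 and Syn1) and higher in Sncg, where 1.24% were lower and 3.13% higher (4.37%). NA1b differed from NA1c in Syn2 alone, which was lower, where 0.944% were lower and 0.479% higher (1.42%). The members' medians were -0.25, -0.18 and 0.04, against 0.00, 0.00 and 0.01 over all genes. NA1a neurons had a median of 8181.5 UMIs in the matched mice against 3338 in NA1b and 2778.5 in NA1c, and with every neuron thinned to 2000 UMIs limma called no member between NA1a and NA1b (6 at an unadjusted p under 0.05) and 1, Cplx2, between NA1a and NA1c. Mouse 1 carried much of these counts: without it 1 member was called against NA1b and 1 against NA1c. Without mouse 4, 3 and 2 were called, and without mouse 2 or mouse 5, 3 against NA1b. The Syn2 call between NA1b and NA1c was lost without mouse 1 (adjusted p = 0.135), mouse 3 (adjusted p = 0.116), mouse 4 (adjusted p = 0.129) or mouse 5 (adjusted p = 0.115).

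The SNARE proteins Snap25 and Stx1a sit on the plasma membrane and Vamp1 and Vamp2 on the vesicle. Snap25 stood at 8.91, 9.59, 6.92, 9.82 and 10.9 UMIs per 10000 in NA1a in mice 1 to 5, at 8.05, 10.7, 8.64, 8.55 and 10.1 in NA1b and at 8.59, 7.95, 7.62, 8.43 and 10.4 in NA1c. In NA3 it was 4.29, 5.16 and 5.12 in mice 2, 4 and 5, below every NA1 mouse, a log2 difference of -0.96 (SE 0.17, adjusted p = 2.56e-05). NA2 (6.55 to 9.89) and Ach2 (7.93 to 9.80) lay within the NA1 range or just below it, with differences of -0.15 (95% interval -0.42 to 0.12) and -0.03 (95% interval -0.45 to 0.39). Vamp2, the main vesicle SNARE, behaved likewise: it was 1.93, 2.76 and 2.67 in NA3 against 3.33 to 6.31, 4.60 to 7.89 and 3.90 to 5.57 in NA1a, NA1b and NA1c, a difference of -1.01 (SE 0.20, adjusted p = 9.56e-05), and 4.52 to 6.26 in NA2. Among the NA3 neurons low in glial transcripts the Vamp2 difference was -0.61 and was not called (adjusted p = 0.312), whereas Snap25 kept -0.99 (adjusted p = 0.00424).

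Stx1a, the syntaxin that pairs with Snap25, was the SNARE that fell in NA2 with or without the shared barcodes. Its NA2 levels were 0.159, 0.865, 0.708, 0.618 and 1.15, against 1.67, 1.67, 1.26, 1.60 and 1.51 in NA1a, 0.915 to 1.78 in NA1b and 0.945 to 1.84 in NA1c. The difference was -1.06 (SE 0.24, adjusted p = 0.000207) and was lower in 5 of 5 mice. In NA3 it was 0.597, 1.06 and 0.575, a difference of -1.04 (SE 0.30, adjusted p = 0.00928) that was lost without mouse 2 (adjusted p = 0.0894) or mouse 5 (adjusted p = 0.107) and in the NA3 neurons low in glial transcripts (-1.32, adjusted p = 0.264). Vamp1 averaged 0.0854 ± 0.0901 in NA3 (SD, n = 3) and 0.228 ± 0.152 in NA2 (SD, n = 5) against 0.283 to 0.627 in the NA1 subtypes, with differences of -1.64 (adjusted p = 0.00399) and -0.84 (adjusted p = 0.0311). The NA2 call of Vamp1 was lost in 8 of 14 alternatives, and its sign turned at equal depth, where 4 mice had an NA2 profile. In NA3 Vamp1 was lost at equal depth (-1.09, adjusted p = 0.2) and without mouse 4 (adjusted p = 0.142), and in NA2 without mouse 2 (adjusted p = 0.174) or mouse 3 (adjusted p = 0.0712).

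Of the disassembly genes, Nsf is the ATPase that pulls used SNARE complexes apart and Napa and Napb (alpha-SNAP and beta-SNAP) load it onto them. Napb was 1.63, 2.62 and 1.76 UMIs per 10000 in NA3, below the 2.94 to 4.01 of NA1a, the 3.29 to 4.42 of NA1b and the 3.07 to 5.87 of NA1c, a difference of -0.99 (SE 0.21, adjusted p = 0.000392). Its NA2 range of 3.21 to 6.32 overlapped all of them. Nsf was 0.140 and 0.333 in mice 1 and 4 in Ach2 and 0.616 to 1.31, 0.775 to 1.22 and 0.661 to 1.37 in NA1a, NA1b and NA1c, a difference of -1.45 (SE 0.39, adjusted p = 0.011) that fell short of the threshold without the shared barcodes (adjusted p = 0.0761), or without mouse 1 (adjusted p = 0.268) or mouse 4 (adjusted p = 0.067). Napa was called in none of the 6 comparisons, and its means over mice ran from 1.2 in Ach2 to 2.17 in NA2.

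**Figure D4:**
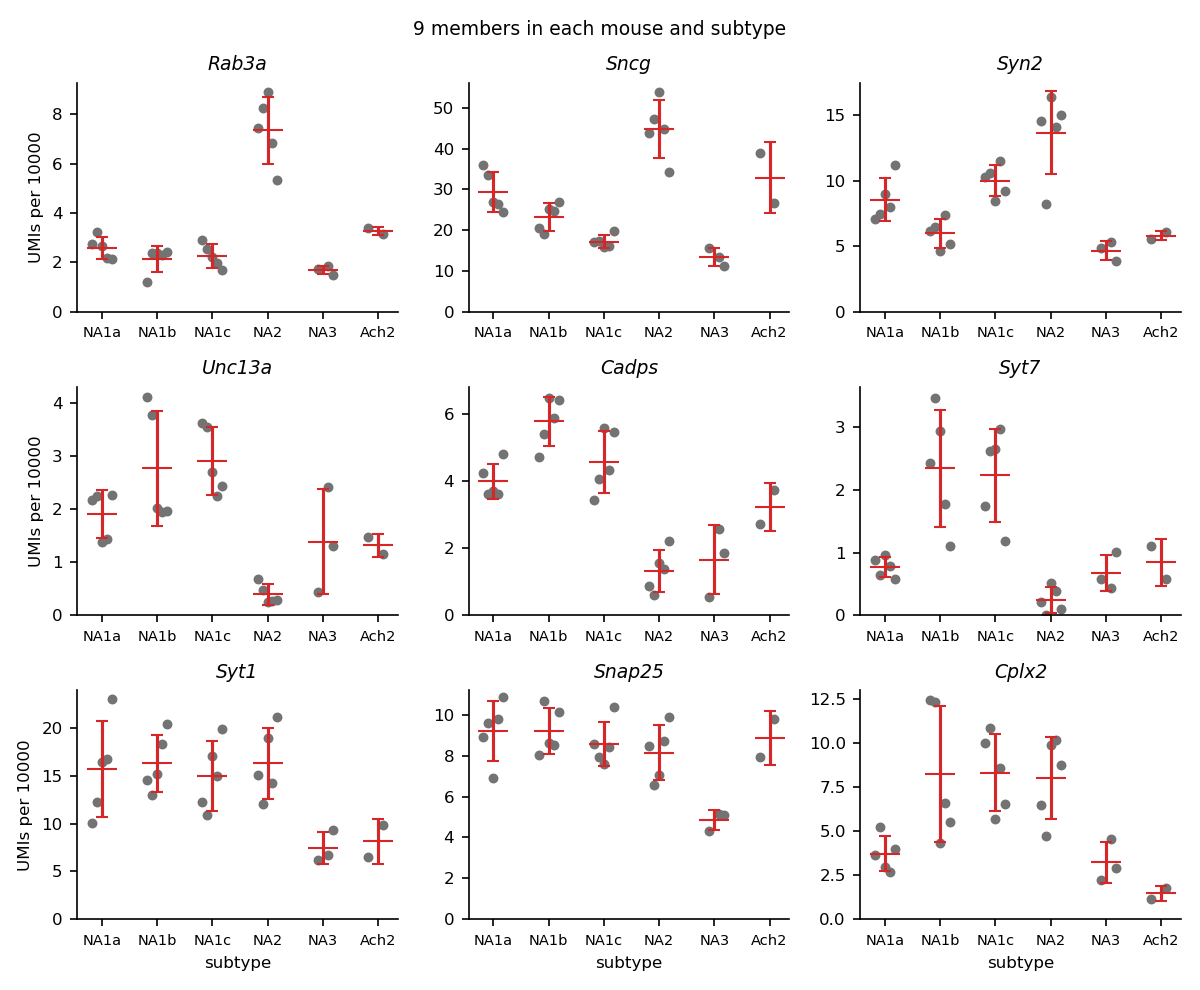
UMIs per 10000 of 9 members in each mouse (points) for 6 subtypes, with the mean and SD in red. Rab3a in NA2 (5.35 to 8.89) lies above every other subtype, Unc13a in NA2 (0.246 to 0.691) lies below every NA1 mouse, and Snap25 in NA3 (4.29 to 5.16) lies below every mouse of the other subtypes shown.

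The calcium sensors split by isoform. Syt1, the fast sensor of synaptic vesicle release, was 10.0, 12.2, 16.4, 16.7 and 23.1 in NA1a, 14.6, 13.0, 15.2, 18.3 and 20.4 in NA1b, 12.2, 10.9, 17.0, 15 and 19.9 in NA1c and 15.1, 12, 18.9, 14.3 and 21.2 in NA2 in mice 1 to 5. These 4 subtypes overlapped, and the NA2 difference was 0.07 (95% interval -0.20 to 0.33). In NA3 it was 6.18, 6.70 and 9.32 in mice 2, 4 and 5, a difference of -1.11 (SE 0.17, adjusted p = 1.21e-06), and in Ach2 6.50 and 9.80 in mice 1 and 4, a difference of -0.80 (SE 0.20, adjusted p = 0.0067). The Ach2 call was lost at equal depth and without mouse 1 (adjusted p = 0.181) or mouse 4 (adjusted p = 0.0529).

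Syt7, a slow, high-affinity calcium sensor, followed another order. It was 2.43, 3.47, 2.93, 1.77 and 1.10 in NA1b and 1.75, 2.63, 2.65, 2.97 and 1.19 in NA1c, but 0.888, 0.638, 0.954, 0.786 and 0.572 in NA1a and 0.217, 0, 0.523, 0.388 and 0.106 in NA2. Every NA1a mouse lay below every NA1b and NA1c mouse, and every NA2 mouse lay below every NA1a mouse. The differences were -1.41 (SE 0.34, adjusted p = 0.00926) for NA1a against NA1b, -1.38 (SE 0.34, adjusted p = 0.011) against NA1c and -2.5 (SE 0.28, adjusted p = 3.14e-10) for NA2 against the NA1 subtypes. In NA2 a mouse listed at 0 makes the size depend on the pseudocount, and with a pseudocount of 1 it was -1.09. The call against NA1b was lost without mouse 1 (adjusted p = 0.101) and that against NA1c without mouse 1 (adjusted p = 0.0768) or mouse 4 (adjusted p = 0.0794). In NA3 Syt7 stood at 0.582, 0.443 and 1.0, a difference of -0.91 (adjusted p = 0.0511).

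Syt11 and Syt4, synaptotagmins that do not bind calcium in the way Syt1 does and that regulate other membrane traffic, were the calcium sensor relatives that rose in NA2. Syt11 was 7.14, 5.69, 7.60, 5.38 and 7.27 in NA2 against 2.64 to 5.18, 3.32 to 6.63 and 3.72 to 5.46 in NA1a, NA1b and NA1c, a difference of 0.64 (SE 0.17, adjusted p = 0.00109), higher in 5 of 5 mice although the ranges overlapped. It was one of the members that did not fall in NA3 (4.18, 5.18 and 4.02), with a difference of 0.16 (95% interval -0.27 to 0.58). Syt4 averaged 10.3 ± 1.22 in NA2 and 3.92 ± 0.189 in NA3 against 6.41 to 7.95 in the NA1 subtypes, with differences of 0.55 (adjusted p = 0.00168) and -0.80 (adjusted p = 0.0013). The Syt4 rise in NA2 was lost at equal depth (0.42, adjusted p = 0.128), where 4 mice had an NA2 profile. Its fall in NA3 was lost there too (-0.41, adjusted p = 0.274), in the NA3 neurons low in glial transcripts (-0.82, adjusted p = 0.0535) and without mouse 4 (adjusted p = 0.0616). Syt5 fell in NA3 (-0.92, adjusted p = 0.019), a call lost without mouse 2 (adjusted p = 0.0754) or mouse 5 (adjusted p = 0.129), in the NA3 neurons low in glial transcripts (-1.07, adjusted p = 0.154) and at equal depth, where the difference was -0.08 (adjusted p = 0.933). Rph3a, a Rab3 effector with C2 domains, had 3 UMIs in all 62 Ach2 neurons, where NA1b had 116 UMIs in 311 neurons, and its Ach2 difference of -2.27 (adjusted p = 0.00692) shrank to -0.56 with a pseudocount of 1 (adjusted p = 0.0324). It was lost without mouse 1 (adjusted p = 0.078) or mouse 4 (adjusted p = 0.225). Doc2b was called in none of the 6 comparisons.

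Complexins clamp and stabilise the assembled SNARE complex. Cplx2 was 3.66, 5.22, 2.96, 2.67 and 3.99 in NA1a in mice 1 to 5, 12.4, 12.3, 4.29, 6.61 and 5.50 in NA1b, 9.97, 10.8, 5.69, 8.55 and 6.52 in NA1c and 6.47, 4.71, 9.86, 10.2 and 8.76 in NA2. In every mouse NA1a was lower than NA1b and NA1c, with log2 differences of -1.04 (SE 0.25, adjusted p = 0.00912) and -1.14 (SE 0.25, adjusted p = 0.00438). The first was lost without mouse 1 (adjusted p = 0.206) or mouse 4 (adjusted p = 0.0879) and the second without mouse 1 (adjusted p = 0.0794) or mouse 4 (adjusted p = 0.0734). Ach2 was the lowest, at 1.14 and 1.76 in mice 1 and 4, below every NA1 mouse, a difference of -2.15 (SE 0.31, adjusted p = 2.9e-06), and this call held in all 14 alternatives. In NA3 Cplx2 was 2.24, 4.51 and 2.90, a difference of -1.0 (SE 0.26, adjusted p = 0.00318) that was lost without mouse 2 (adjusted p = 0.104) and in the NA3 neurons low in glial transcripts (-0.83, adjusted p = 0.251).

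Cplx1 was 1.30, 1.26, 0.850, 1.17 and 0.353 in NA1a and 2.69, 3.28, 2.20, 2.45 and 2.29 in NA1b, and the 2 ranges did not overlap. The difference was -1.4 (SE 0.27, adjusted p = 0.000669), and it was lost at equal depth (adjusted p = 0.289 with neurons thinned to 2000 UMIs). In NA1c it was 1.24, 2.21, 1.67, 1.17 and 1.18, a difference of NA1a from NA1c of -0.62 (unadjusted 95% interval -1.16 to -0.08) that was not called. It stood at 1.31 and 1.51 in Ach2, within the NA1 range (-0.20, 95% interval -0.88 to 0.47). Whether the 2 complexins differ in their Ach2 change was not tested.

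Of the 6 docking and priming genes tested, 3 were lower and 2 higher in NA2. Of all genes, 37.5% were lower and 22.4% higher there (60% in either direction), so a call was the usual case. Unc13a (Munc13-1, which opens syntaxin and primes vesicles) was 0.691, 0.474, 0.246, 0.261 and 0.290 in NA2 in mice 1 to 5, against 2.17, 2.24, 1.37, 1.43 and 2.26 in NA1a, 4.10, 3.77, 2.02, 1.94 and 1.97 in NA1b and 3.62, 3.54, 2.69, 2.24 and 2.43 in NA1c. Every NA2 mouse lay below every NA1 mouse, the difference being -2.42 (SE 0.24, adjusted p = 1.11e-11) and -2.14 without the shared barcodes. In NA3 it was 0.437, 2.41 and 1.30, with mouse 4 inside the NA1 range. The difference of -0.97 (adjusted p = 0.0142) was lost without mouse 2 (adjusted p = 0.749) and at equal depth (-1.06, adjusted p = 0.0806), and was -0.08 (adjusted p = 0.943) in the NA3 neurons low in glial transcripts.

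Cadps (CAPS-1, a priming factor best known for dense-core vesicles) was 0.874, 0.603, 1.57, 1.37 and 2.23 in NA2, against 4.25, 3.62, 3.71, 3.62 and 4.82 in NA1a, 4.74, 5.40, 6.48, 5.90 and 6.44 in NA1b and 3.44, 4.06, 5.60, 4.33 and 5.47 in NA1c. It was lower in every NA2 mouse than in any NA1 mouse, a difference of -1.87 (SE 0.19, adjusted p = 2.37e-11), and of -1.30 without the shared barcodes. In NA3 it was 0.559, 2.56 and 1.87 in mice 2, 4 and 5, a difference of -1.69 (SE 0.24, adjusted p = 3.6e-07) that held in all 15 alternatives. Rims2, an active zone scaffold named after its values were seen, was 0.0355 to 0.464 in NA2 against 1.37 to 2.31, 0.648 to 2.43 and 0.847 to 1.78 in NA1a, NA1b and NA1c, a difference of -2.15 (SE 0.27, adjusted p = 5.29e-09), and it fell in NA3 too (-1.12, adjusted p = 0.0122), a call lost without mouse 2 (adjusted p = 0.215) or mouse 5 (adjusted p = 0.14) and in the NA3 neurons low in glial transcripts (-0.81, adjusted p = 0.525).

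The 3 Rab3 genes encode vesicle GTPases that recruit RIM. Rab3a was 7.44, 8.26, 8.89, 6.84 and 5.35 in NA2 and 2.74, 3.23, 2.66, 2.17 and 2.15 in NA1a, 1.22, 2.37, 2.36, 2.31 and 2.43 in NA1b and 2.90, 2.53, 2.22, 1.97 and 1.68 in NA1c. All NA2 mice stood above all NA1 mice, the difference being 1.63 (SE 0.17, adjusted p = 7.07e-11), and 1.33 without the shared barcodes. Of the 6 docking and priming genes tested it was the 1 not called in NA3, where it was 1.75, 1.83 and 1.48 (-0.39, 95% interval -0.82 to 0.05). Rab3c was called in NA3 and in no other subtype comparison (-0.99, adjusted p = 0.00181), and was lost without mouse 4 (adjusted p = 0.155).

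Rab3b, also chosen after its values were seen, was 6.28, 6.52, 4.64, 5.57 and 5.31 in NA1a, 3.62, 2.83, 3.38, 3.81 and 3.38 in NA1b and 4.19, 3.82, 3.63, 2.92 and 5.05 in NA1c. All NA1a mice stood above all NA1b mice, but the difference of 0.71 (SE 0.21, adjusted p = 0.05) sat at the threshold and lost its call in 12 of 14 alternatives, among them without mouse 1 (adjusted p = 0.259), mouse 2 (adjusted p = 0.201), mouse 3 (adjusted p = 0.0714), mouse 4 (adjusted p = 0.0561) or mouse 5 (adjusted p = 0.127). It was lowest in Ach2 (1.19 and 0.910 in mice 1 and 4) and NA3 (2.07, 0.632 and 1.68 in mice 2, 4 and 5), below every NA1 mouse, with differences of -1.79 (SE 0.27, adjusted p = 4.96e-06) and -1.57 (SE 0.22, adjusted p = 3.87e-07). Both calls held in every alternative tried. In NA2 it was 5.86, 6.12, 7.90, 4.21 and 5.34 in mice 1 to 5, a difference of 0.45 (adjusted p = 0.0248) that was lost without mouse 1 (adjusted p = 0.0563) or mouse 3 (adjusted p = 0.186).

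Of the 6 vesicle membrane genes tested, few were called. Synaptophysin (Syp), its relative Sypl, and Sv2c, a vesicle glycoprotein, were called in none of the 6 comparisons, and Syp means over mice ran from 1.70 in NA3 to 2.78 in NA1b. Syngr3, a synaptogyrin, was 3.68, 3.30, 5.16, 4.11 and 4.12 in NA2 against 2.5, 2.33, 2.73, 2.24 and 1.77 in NA1a, 1.42, 1.29, 2.74, 2.74 and 1.4 in NA1b and 1.83, 1.19, 1.46, 1.34 and 1.59 in NA1c. All NA2 mice lay above all NA1 mice, a difference of 1.10 (SE 0.19, adjusted p = 3.44e-06). Sv2a, the most widely expressed of the SV2 glycoproteins, was 0.882, 0.547 and 0.523 in NA3 against 0.936 to 1.65, 1.73 to 2.20 and 1.24 to 3.23 in NA1a, NA1b and NA1c, a difference of -1.31 (SE 0.26, adjusted p = 0.000118), and was the 1 gene of this group called in NA3. That call was lost at equal depth (-0.96, adjusted p = 0.053). Syngr1 was called in no subtype comparison.

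The synapsins tie vesicles to each other and to actin. Syn1 was 1.06, 0.807, 1.28, 0.760 and 0.806 in NA1a, 4.07, 5.34, 0.908, 1.28 and 2.18 in NA1b and 4.08, 4.63, 2.55, 2.24 and 1.69 in NA1c in mice 1 to 5. Every NA1a mouse was below every NA1c mouse, a difference of -1.52 (SE 0.29, adjusted p = 0.00108) that was lost at equal depth and in no other alternative. In NA1b mouse 3 had less Syn1 than in NA1a, and the difference of -1.2 (SE 0.29, adjusted p = 0.00972) was lost in 7 of 14 alternatives, among them without mouse 1 (adjusted p = 0.21), mouse 2 (adjusted p = 0.125) or mouse 5 (adjusted p = 0.0584). Syn2 was 7.07, 7.44, 8.96, 8.02 and 11.2 in NA1a, 6.15, 6.48, 4.66, 7.41 and 5.13 in NA1b and 10.3, 10.5, 8.46, 11.5 and 9.24 in NA1c, lower in NA1b than in NA1c in 5 of 5 mice (-0.75, SE 0.19, adjusted p = 0.0224). In NA2 Syn2 was 14.6, 8.2, 16.4, 14.1 and 15, a difference of 0.74 (SE 0.15, adjusted p = 6.2e-05), with mouse 2 far below the other 4. In NA3 both fell, Syn2 to 4.85, 5.29 and 3.86 (-0.77, adjusted p = 0.00234) and Syn1 to 1.27, 0.512 and 1.14 (-0.81, adjusted p = 0.0422). The Syn2 call was lost without mouse 5 (adjusted p = 0.0582), and that of Syn1 without mouse 1 (adjusted p = 0.0691), mouse 2 (adjusted p = 0.11), mouse 4 (adjusted p = 0.312) or mouse 5 (adjusted p = 0.0502) and in the NA3 neurons low in glial transcripts (-1.03, adjusted p = 0.211). The Syn1 call was also lost with no filter, after centring on the median gene and without mitochondrial genes. It was kept in 7 of 15 alternatives.

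The synucleins are presynaptic proteins that bind vesicle lipid. Sncg was 35.9, 33.5, 26.9, 26.3 and 24.4 in NA1a, 20.4, 19.0, 25.2, 24.7 and 27.0 in NA1b, 17.0, 17.2, 15.9, 16.1 and 19.8 in NA1c and 43.9, 47.3, 54.0, 44.8 and 34.4 in NA2. NA1a stood above NA1c in every mouse without overlap (0.76, SE 0.17, adjusted p = 0.0052), and NA2 above the mean of the NA1 subtypes in every mouse (0.97, SE 0.14, adjusted p = 1.07e-07). In NA3 it was 15.6, 13.4 and 11.3, a difference of -0.72 (SE 0.18, adjusted p = 0.00193). The NA1c call was lost without mouse 1 (adjusted p = 0.0781) and the NA3 call without mouse 5 (adjusted p = 0.0502). Sncb was 0.393, 0.301 and 0.339 in NA3 against 0.569 to 1.32, 0.882 to 1.46 and 0.933 to 1.72 in NA1a, NA1b and NA1c, a difference of -1.33 (SE 0.32, adjusted p = 0.0015) that was lost without mouse 4 (adjusted p = 0.0577), at equal depth (-0.78, adjusted p = 0.251) and in the NA3 neurons low in glial transcripts (-1.23, adjusted p = 0.229), and it did not pass the test in NA2 (-0.12, 95% interval -0.62 to 0.39).

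The bases upstream of 3 genes that differed between NA1a and its neighbours are shown, Rab3b because it was higher in NA1a and Cplx1 and Syn1 because they were lower. They are the 250 bases before the gene's annotated start in RefSeq, build GRCm38.p6, with every GC box (GGGCGG) and every cyclic AMP response half-site (TGACG) on either strand in capitals.
Rab3b (chr4:108878820-108879069, plus strand): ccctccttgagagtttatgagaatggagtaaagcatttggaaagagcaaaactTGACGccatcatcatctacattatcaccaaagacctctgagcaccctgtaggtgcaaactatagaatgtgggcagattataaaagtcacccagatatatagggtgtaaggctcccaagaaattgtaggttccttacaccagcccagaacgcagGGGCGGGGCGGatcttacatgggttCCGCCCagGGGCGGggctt
Cplx1 (chr5:108550028-108550277, minus strand): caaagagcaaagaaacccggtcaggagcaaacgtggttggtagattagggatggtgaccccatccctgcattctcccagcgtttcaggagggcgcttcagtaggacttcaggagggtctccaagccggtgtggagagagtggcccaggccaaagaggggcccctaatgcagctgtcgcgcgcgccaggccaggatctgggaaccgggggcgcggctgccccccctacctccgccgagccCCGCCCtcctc
Syn1 (chrX:20920919-20921168, minus strand): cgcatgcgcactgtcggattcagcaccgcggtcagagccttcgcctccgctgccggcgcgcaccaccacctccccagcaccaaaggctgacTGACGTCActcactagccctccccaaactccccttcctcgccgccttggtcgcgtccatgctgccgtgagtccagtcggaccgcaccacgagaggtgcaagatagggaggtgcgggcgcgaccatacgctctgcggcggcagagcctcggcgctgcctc
Rab3b holds 4 GC boxes, and 1 half-site. Cplx1 holds 1 GC box, and in Syn1 2 half-sites on opposite strands overlap in 1 palindrome. Over the 32851 promoters of the table, which are taken at transcript starts, the GC box occurs in 32.7% and the half-site in 17.8%, and over the 36 promoters of the 27 members found there in 61.1% and 22.2%. The motifs are letters in a window and not measured sites, and nothing about a factor follows from them.

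Neurons were also compared by their Npy level. Among NA1a, NA1b and NA3 neurons, the 30% with the most Npy (at least 45.8 UMIs per 10000) were set against the 30% with the least (at most 5.58). The top stratum held 147 NA1a, 10 NA1b and 8 NA3 neurons of the matched mice and the bottom one 5, 118 and 31. This comparison thus repeats much of the one between NA1a and NA1b, with NA3 neurons mostly in the bottom stratum. All 6 satellite glia markers tested were lower in Npy-high neurons (median log2 difference -2.03). The part of NA3 neurons and glial RNA in this comparison was not tested. Of 30 members tested over 3926 genes, 2 were higher (Rab3b and Syn2) and 5 lower (Cplx1, Syt7, Cplx2, Syn1 and Syngr1) in Npy-high neurons, where 6.47% of all genes were higher and 5.3% lower (11.8% in either direction). Median depth was 8159 UMIs in Npy-high and 6084 in Npy-low neurons.

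Rab3b was 6.76, 5.60, 4.96, 5.14 and 5.93 UMIs per 10000 in Npy-high neurons of mice 1 to 5 and 3.19, 3.14, 3.09, 2.68 and 3.08 in Npy-low neurons, a difference of 0.88 (SE 0.15, adjusted p = 0.000103), with no overlap. Syn2 was 6.95, 8.64, 8.41, 8.02 and 9.93 against 5.82, 5.33, 4.71, 6.41 and 4.72, a difference of 0.63 (SE 0.15, adjusted p = 0.00416), again with no overlap. Cplx1 went the other way, at 1.23, 1.68, 0.848, 1.24 and 0.386 in Npy-high and 2.62, 3.14, 1.99, 2.74 and 1.49 in Npy-low neurons, -1.17 (SE 0.19, adjusted p = 8.32e-05). All 5 mice had the same direction in each of these 3 genes. Syt7 was lower in 5 of 5 mice (-0.95, adjusted p = 0.00156), and Cplx2, Syn1 and Syngr1 in 4 of 5 mice each, with differences of -0.62 (adjusted p = 0.0138), -0.79 (adjusted p = 0.0256) and -0.80 (adjusted p = 0.0284). Cplx2 was lost without mouse 1 (adjusted p = 0.12), mouse 3 (adjusted p = 0.0612) or mouse 4 (adjusted p = 0.066), Syn1 without mouse 1 (adjusted p = 0.13) or mouse 2 (adjusted p = 0.209) and Syngr1 without mouse 1 (adjusted p = 0.091), mouse 3 (adjusted p = 0.168) or mouse 4 (adjusted p = 0.117). Without mouse 1, 4 members were called. At equal depth 2 calls of 7 were left, Rab3b and Cplx1.

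To hold the subtype fixed, the same strata were drawn inside NA1a, NA1b, NA1c and NA2 of each mouse and averaged. The single strata held 4 to 28 neurons, and each subtype counted alike. Of 29 members tested over 3839 genes, 2 were higher, Rab3b and Syn2, and none was lower by limma (3 at an unadjusted p under 0.05), where 0.886% of all genes were higher and 0.547% lower (1.43% in either direction). Rab3b was 5.40, 6.56, 7.17, 5.08 and 5.70 in Npy-high and 4.26, 4.08, 2.49, 3.43 and 3.91 in Npy-low neurons of mice 1 to 5, a difference of 0.72 (SE 0.14, adjusted p = 0.000268). Syn2 was 11.1, 8.67, 9.88, 10.9 and 12.2 against 8.32, 6.04, 6.94, 8.18 and 8.35, a difference of 0.48 (SE 0.11, adjusted p = 0.00354). Both were higher in 5 of 5 mice and neither overlapped. Cplx1 was lower in 5 of 5 mice but did not pass the test (-0.53, adjusted p = 0.194), and Syt7 (-0.22, 95% interval -0.66 to 0.23) and Cplx2 (0.06, 95% interval -0.18 to 0.30) did not either. At equal depth both calls were lost, with differences of 0.64 for Rab3b (adjusted p = 0.126) and 0.49 for Syn2 (adjusted p = 0.174). Without mouse 3, whose Npy-low neurons had the least Rab3b, Rab3b was not called either (adjusted p = 0.0708).

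**Figure D5:**
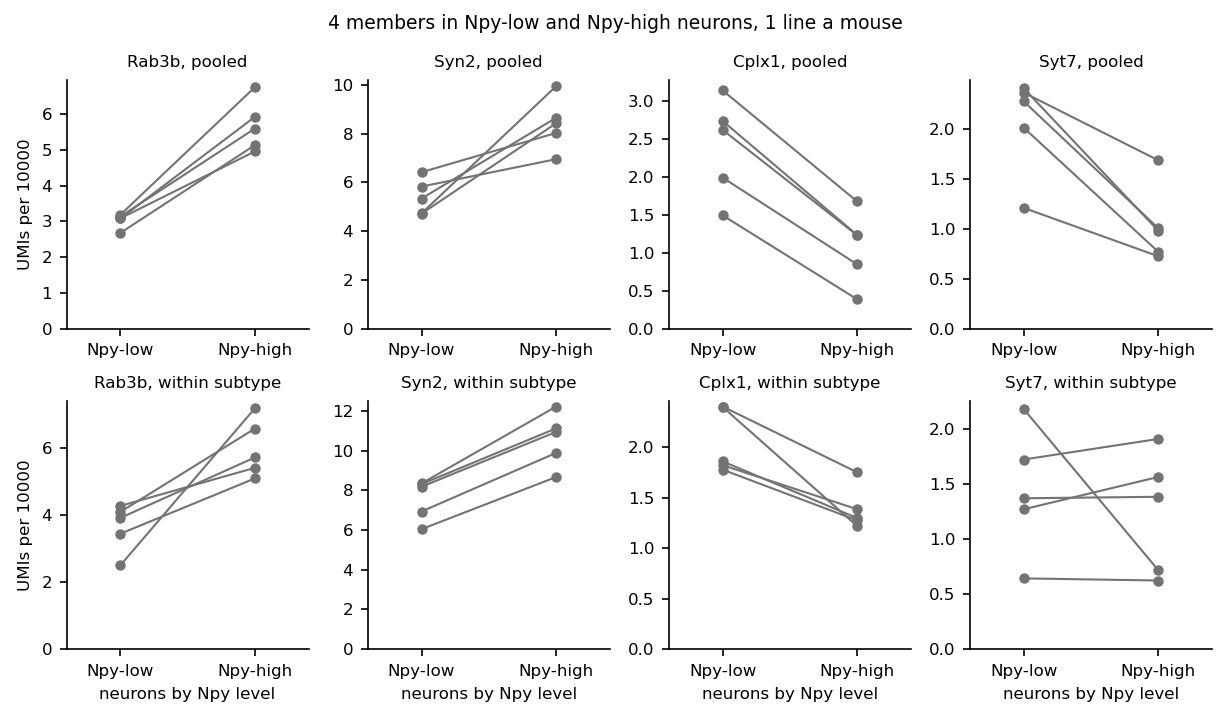
UMIs per 10000 of Rab3b, Syn2, Cplx1 and Syt7 in Npy-low and Npy-high neurons, 1 line per mouse, for the strata pooled over NA1a, NA1b and NA3 (top) and drawn within each subtype (bottom). Rab3b and Syn2 rise in all 5 mice in both rows, Cplx1 falls in all 5, and the Syt7 lines cross in the lower row.

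The subtypes did not contribute alike to these averages. Rab3b averaged 3.95 in Npy-low and 7.19 in Npy-high NA1a neurons, 2.30 and 5.37 in NA1c and 4.23 and 8.16 in NA2, higher in 5 of 5 mice in each, but 4.06 and 3.2 in NA1b, where 2 of 5 mice were higher. Syn2 averaged 7.89 and 19.0 in NA2, higher in 5 of 5 mice, and 7.89 and 7.82 in NA1a, 5.53 and 5.98 in NA1b and 8.96 and 9.45 in NA1c, higher in 2, 3 and 3 of 5 mice. The widest Syn2 gap was that of NA2, whose strata held only 4 to 15 neurons in a mouse. Without the shared barcodes the NA2 averages of Syn2 were 8.74 and 20.4 in 4 mice, higher in 4 of 4. Whether the effect differs between subtypes was not tested. In 4 of the 5 mice NA1b neurons low in Npy had more UMIs than those high in Npy, such as a median of 8485 against 1902 in mouse 1, and the part of depth in the NA1b values was not tested.

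The other genes of the vesicle cycle came from a list of 93, of which 92 were in the table and 74 were tested. In NA3, 22 were lower and 2 higher, with a median of -0.60, where 15.2% of all genes were lower and 10.4% higher and their median was -0.24. In NA2, 32 were lower and 14 higher, with a median of -0.21, where 37.5% of all genes were lower and 22.4% higher and their median was -0.28, so the list was near the background there. The smallest adjusted p among them in NA2 were those of Pclo, an active zone scaffold (-2.16, adjusted p = 9.22e-14), Stxbp2, a Munc18 protein (-3.02, adjusted p = 5.61e-12), and Slc18a2, the vesicular monoamine transporter (-1.45, adjusted p = 6.43e-11). In Ach2, where 5.65% of all genes were lower and 4.26% higher, 7 were lower and 1 higher, the latter being Slc18a3, the vesicular acetylcholine transporter (3.36, adjusted p = 9.59e-08), while Slc18a2 fell (-2.70, adjusted p = 7.32e-12). NA1a differed from NA1b in 4 (3 lower) and from NA1c in 5 (4 lower), where 3.48% and 4.37% of all genes differed. Limma called none of them between NA1b and NA1c (7 at an unadjusted p under 0.05) or between the strata within subtypes (3 of 58).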

How the data were processed

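Single cells of mouse stellate ganglia were captured on a droplet platform and read by the submitters' pipeline, whose processing notes name Cell Ranger 2.1.1, Seurat, Scanpy and the build mm10. The authors kept cells whose gene number lay between 500 and 6000, whose UMIs stayed below 20000 and whose mitochondrial share stayed below 15%, then integrated the libraries, clustered the neurons and named the subtypes. How doublets were treated is not given in the sources used here, and no doublet caller was run. The values deposited by the authors are the natural log of 1 plus the UMIs per 10000 of each neuron, with the mouse name and subtype of each neuron in a second table. They were turned back to UMIs per 10000, and 100% of nonzero values came out as whole UMIs within 0.01.

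The members and lists were chosen with earlier results of these data known. Mean UMIs per 10000 were taken over the neurons of each mouse and subtype with at least 10 neurons, giving 25 profiles (5 mice each for NA1a, NA1b, NA1c and NA2, 3 for NA3 and 2 for Ach2). A linear model of log2(value + 0.1) with mouse as a fixed block was run in limma 3.58.1 (R 4.3.3) on the 7095 genes that reached 0.5 in 2 or more profiles, and p-values were adjusted by Benjamini-Hochberg. A fold on this scale understates the change of low genes. The mouse number pairs the profiles because they come from the same library: deviations from the subtype means correlated by 0.0616 on average within a mouse and by -0.0616 between mice. Npy strata were fitted the same way over 10 profiles each. Within subtypes the minimum of 10 neurons applied to the subtype of a mouse and not to each stratum. Samples here are labelled as separate mice, and p-values measure the spread between these libraries. Values in every mouse were given for members called with the same direction in every mouse, at most 3 a role, and for Snap25 and Syt1, with Rims2 and Rab3b added after their values were seen. The other members are named with means, ranges or differences, and the related genes by the smallest adjusted p. The steps were tested on simulated data. Alternatives were a pseudocount of 1, no filter, no block, each mouse left out, summed UMIs, thinning to 2000 UMIs, centring and at least 5 neurons a profile, and, added after seeing the data, leaving out shared barcodes, mitochondrial genes or glia-rich NA3 neurons. Promoters and gene spans came from RefSeq, GRCm38.p6. Other tools were Python 3.11.15, NumPy 2.4.6, pandas 2.3.3, SciPy 1.17.1 and matplotlib 3.10.9.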

Additional observations from a re-analysis of the deposited data

Results flagged for a closer look

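In 4 of 116 sets of 5 mice (member and subtype), 1 mouse stood apart from the others by Dixon's gap ratio, which chance alone does in about 1 of 20 sets. Syn2 in NA2 was 8.2 in mouse 2 and 14.1 to 16.4 in the other 4, and NA2 of mouse 2 had 14 neurons. Rab3a in NA1b was 1.22 in mouse 1 and 2.31 to 2.43 in the others. In NA1a, mouse 5 was high in Rab3c, at 5.17 against 2.73 to 3.29, and in Rims2, at 2.31 against 1.37 to 1.5. The NA2 calls of Syn2 without mouse 2 (log2 0.92) and of Rab3a without mouse 1 (1.60) were kept.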

How the results depend on the processing

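Over the 57 called differences and 818 alternative values, 675 were still called, 142 were not and 1 reversed: Vamp1 in NA2 at equal depth, with a log2 difference of 0.35. Thinning to 2000 UMIs also drops the neurons with fewer, which left 124 of 175 NA2 neurons and 4 NA2 mice. It ended more calls than any other alternative (24 of 57), and it left 3 members in Ach2, 0 between NA1a and NA1b (6 at an unadjusted p under 0.05 by limma), 1 between NA1a and NA1c, 2 between pooled Npy strata and 0 within subtype (7 unadjusted). Without the filter on low genes 1, 2 and 0 members (4 unadjusted) were called in NA1a against NA1b, NA1a against NA1c and NA1b against NA1c, 4 between pooled Npy strata and 0 within subtype (8 unadjusted). Profiles of at least 5 neurons gave 14 in Ach2 and 0 (6 unadjusted), 2 and 0 (2 unadjusted) within NA1 in the same order, and summed UMIs gave 3, 2 and 2. Without the replicate block 4 and 1 members were called between the pooled and within-subtype Npy strata, and the counts of the subtype comparisons stayed within 1.5 times. The NA3 neurons low in glial genes gave 10. With each mouse left out in turn, the counts ran from 1 to 4 for NA1a against NA1b, 1 to 4 for NA1a against NA1c, 0 to 1 for NA1b against NA1c, 11 to 13 in NA2, 14 to 20 in NA3, 2 to 6 in Ach2, 4 to 8 between pooled Npy strata and 1 to 2 within subtype. The share of all genes called in each of these settings is not given beside the counts. A rise or fall of a count is therefore not a result about the members. The cause of these shifts was not tested. Depth limits the members near 0.5 UMIs per 10000, where a profile of 10 neurons holds few UMIs.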

Other observations

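Ach1 and Glut were not tested: 55 of the 62 Ach1 neurons of the matched mice came from mouse 4, and no matched mouse had more than 7 Glut neurons, under the minimum of 10 a profile. Pooled over all neurons, Ach1 stood nearer to NA2 than to NA1b in 4 genes. Unc13a was 0.825 UMIs per 10000 in Ach1, 0.341 in NA2 and 3.08 in NA1b, and Cadps was 1.55, 1.4 and 5.74. Syt7 was 0.352, 0.286 and 2.62, and Rims2 was 0.251, 0.225 and 1.46. The mice of NA1a held 1.37 to 2.26 of Unc13a, 3.62 to 4.82 of Cadps, 0.572 to 0.954 of Syt7 and 1.37 to 2.31 of Rims2. Against NA1a the contrast was thus narrower in all of these but Rims2. In Rab3a and Syn1 Ach1 did not follow NA2, with 3.52 against 7.38 for Rab3a and 3.66 against 1.52 for Syn1. Satellite glia markers summed to 110.4 in Ach1, above the 5.48 of NA2.

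Glut neurons had the highest summed level of the members, 203 UMIs per 10000 pooled over all 37 neurons, against 117 to 162 in the others except NA3 (67.3). Syt1 was 28.0 in Glut and 14.4 in NA1b, Syt4 was 25.8 and 6.14, Syt11 was 13.2 and 4.18, Rab3c was 11.3 and 3.71, Sv2c was 7.12 and 1.88, and Rph3a was 1.89 and 0.774. Stx1a went against this, at 0.406 in Glut and 1.78 in NA1b, where the mice of NA1a and NA1c held 1.26 to 1.67 and 0.945 to 1.84.

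Gene length moved with the NA2 differences across the table. By the span of each gene in RefSeq, known for 97.4% of the genes tested, the median log2 difference of NA2 from the NA1 subtypes was 0.61 in the fifth of genes with the shortest spans (median 4.77 kb) and -1.03 in the fifth with the longest (median 147 kb). Spearman's rho was -0.48 over 6908 genes and -0.30 over the 32 members tested, and the genes share the same neurons and libraries. In NA3 and Ach2 rho over all genes was -0.28 and -0.22. Among the members higher in NA2, Rab3a, Sncg, Syngr3 and Syt4 spanned 3.91, 4.40, 4.86 and 9.61 kb. Syt11, Rab3b and Syn2, also higher there, spanned 30.5, 64.3 and 148 kb. The part of gene span in these rises was not tested, nor that in the NA2 fall of Unc13a, Cadps, Syt7 and Rims2.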
